A study of Mus musculus with 47 samples.

Results

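Thymic epithelial cells make chemokines, small secreted or membrane-bound proteins that place developing T cells and antigen-presenting cells in the thymus. The genes described here were 9 chemokine genes known from this tissue, Ccl21a, Ccl25, Cxcl12, Ccl5, Ccl17, Ccl22, Xcl1, Cxcl16 and Cx3cl1. They were named by symbol and not by a measured value, though with earlier results of these data known. They were 9 of the 53402 genes of the adult count table and 9 of the 55471 of the neonatal table. All 9 passed the filter on low counts in both tables, Xcl1 only through the groups in which it was high. In the adult table Ccl17 passed mainly through WT mTEChi, where it was highest.

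The libraries were bulk RNA-seq of medullary thymic epithelial cells (mTECs) of C57BL/6 mice, sorted as CD45-EpCAM+Ly51- cells into a fraction with high MHC class II (mTEChi) and a fraction with low MHC class II (mTEClo). In adults of 4 to 6 weeks, mTEChi came from 7 wild type (WT) and 4 AireKO libraries and mTEClo from 8 WT and 4 AireKO libraries. All 8 AireKO libraries came from males of 5 to 6 weeks and the WT libraries from males and females of 4 to 5 weeks, so sex and age differed between these genotypes. In neonates of 1 to 6 days, mTEChi came from 5 control (Ctrl), 3 EEDcKO, 3 AireKO and 3 AireEEDdKO libraries, and mTEClo from 3 Ctrl, 4 EEDcKO and 3 AireEEDdKO libraries. AireKO mice lacked Aire, the transcription regulator that turns on tissue-restricted genes in mTECs, in every cell. EEDcKO mice lost Eed, a core subunit of the histone methyltransferase complex PRC2, through Foxn1-Cre, which acts in all thymic epithelium and not only in mTECs, and AireEEDdKO mice lacked both. Some neonatal libraries pooled male and female animals.

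Totals ran from 1602125 to 3938588 counts in the adult libraries and from 1578579 to 4817418 in the neonatal ones. Aire read 744 to 909 counts per 1000000 (CPM) in adult WT mTEChi and 17.0 to 39.0 in AireKO mTEChi. Eed read 28.8 CPM ± 7.86 (SD, n = 5) in neonatal Ctrl mTEChi and 14.7 ± 4.58 (n = 3) in EEDcKO mTEChi, so that Eed reads were lowered and not absent. All 4 AireKO mTEChi libraries of adults and mTEClo AireKO replicates 3 and 4 held 0 mitochondrial counts, while every other library held at least 6178. Adult Aire genotype and this difference between libraries therefore cannot be told apart in mTEChi. Levels below are CPM with TMM-scaled library sizes, and in bulk samples fewer cells of a type and less RNA per cell cannot be told apart.

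CCL21 binds CCR7 and draws positively selected thymocytes from the cortex to the medulla. CCL25 binds CCR9 and CXCL12 binds CXCR4, and both act on progenitors and immature thymocytes and are abundant in cortical epithelium. CCL17 and CCL22 share the receptor CCR4, CCL5 attracts T cells and monocytes, and XCL1 attracts the XCR1+ dendritic cells that cross-present antigen. CXCL16, the ligand of CXCR6, and CX3CL1, the ligand of CX3CR1, are made as membrane proteins that ADAM proteases shed.

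In the GRCm38 assembly with GENCODE vM21 gene models, 3 of the genes stood side by side on chromosome 8. Ccl22 lay at chr8:94745590-94751699, Cx3cl1 at chr8:94772009-94782427 and Ccl17 at chr8:94810453-94812036, all on the plus strand and separated by 20309 and 28025 bases. Ccl25 lay on the same chromosome at chr8:4325210-4360020 (plus strand). Cxcl12 was at chr6:117168535-117181367 (plus), Ccl21a at chr4:42772860-42773993 (minus), Xcl1 at chr1:164931644-164935527 (minus), Ccl5 at chr11:83525778-83530518 (minus) and Cxcl16 at chr11:70453983-70459984 (minus). Part of the exons of Cxcl16 (18.3%, with Zmynd15), Xcl1 (18.7%, with Gm20743) and Ccl25 (2.7%, with Elavl1) overlapped another gene, and counting without strand cannot assign reads there. The 8 other Ccl21 entries of the tables, near-identical copies of Ccl21a, held 0 counts in all libraries. Reads that match several copies may have been lost with those of mapping quality below 5, so levels of Ccl21a may be too low.

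PRC2 acts mostly at promoters rich in the dinucleotide CpG, so the promoters of members that differ in CpG content are shown. The 250 bases before the RefSeq start (GRCm38.p6) are printed for 4 members whose stretch is nearly free of annotated exons, 5′ to 3′ on the gene's strand, with CpG in capitals.
Ccl21a (chr4:42773992-42774241, - strand): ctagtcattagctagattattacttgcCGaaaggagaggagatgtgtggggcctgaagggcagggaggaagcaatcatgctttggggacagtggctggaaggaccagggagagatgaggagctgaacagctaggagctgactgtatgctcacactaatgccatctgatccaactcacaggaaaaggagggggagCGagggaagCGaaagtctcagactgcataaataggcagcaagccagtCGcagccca
Ccl25 (chr8:4349338-4349587, + strand): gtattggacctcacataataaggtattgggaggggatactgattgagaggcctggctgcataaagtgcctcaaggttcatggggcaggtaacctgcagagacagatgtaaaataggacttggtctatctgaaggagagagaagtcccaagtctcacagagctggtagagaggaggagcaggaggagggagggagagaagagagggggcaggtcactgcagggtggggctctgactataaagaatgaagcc
Cxcl12 (chr6:117168285-117168534, + strand): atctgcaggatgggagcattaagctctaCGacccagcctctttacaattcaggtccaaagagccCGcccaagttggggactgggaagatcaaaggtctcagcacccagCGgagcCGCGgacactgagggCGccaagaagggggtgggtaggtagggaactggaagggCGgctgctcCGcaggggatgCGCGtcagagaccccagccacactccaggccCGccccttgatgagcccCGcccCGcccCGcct
Ccl17 (chr8:94810203-94810452, + strand): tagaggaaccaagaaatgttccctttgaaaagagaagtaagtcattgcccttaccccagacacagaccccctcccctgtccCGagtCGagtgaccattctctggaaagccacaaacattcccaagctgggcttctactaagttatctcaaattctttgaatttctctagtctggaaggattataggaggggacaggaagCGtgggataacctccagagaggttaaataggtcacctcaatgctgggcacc
The Cxcl12 stretch held 14 CpG, that of Ccl21a 4, that of Ccl17 3 and that of the printed Ccl25 start held 0. Over windows that ran 50 bases further, 26.5% of 32851 promoters held at least as many CpG as that of Cxcl12 (20), 28.1% as many as that of Cx3cl1 (19) and 76.7% as many as those of Xcl1 and Ccl17 (3 each). Ccl25 had another RefSeq start further upstream, beside Elavl1, whose window held 52 CpG. The counts do not separate the starts of Ccl25. The letters TATAAA, read on both strands, were found in the Cx3cl1 window and in the Ccl25 window that begins at 4349338, and in 13.6% of all promoters. The promoters of Ccl5 and Cxcl16 were not used here.

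**Figure D1:**
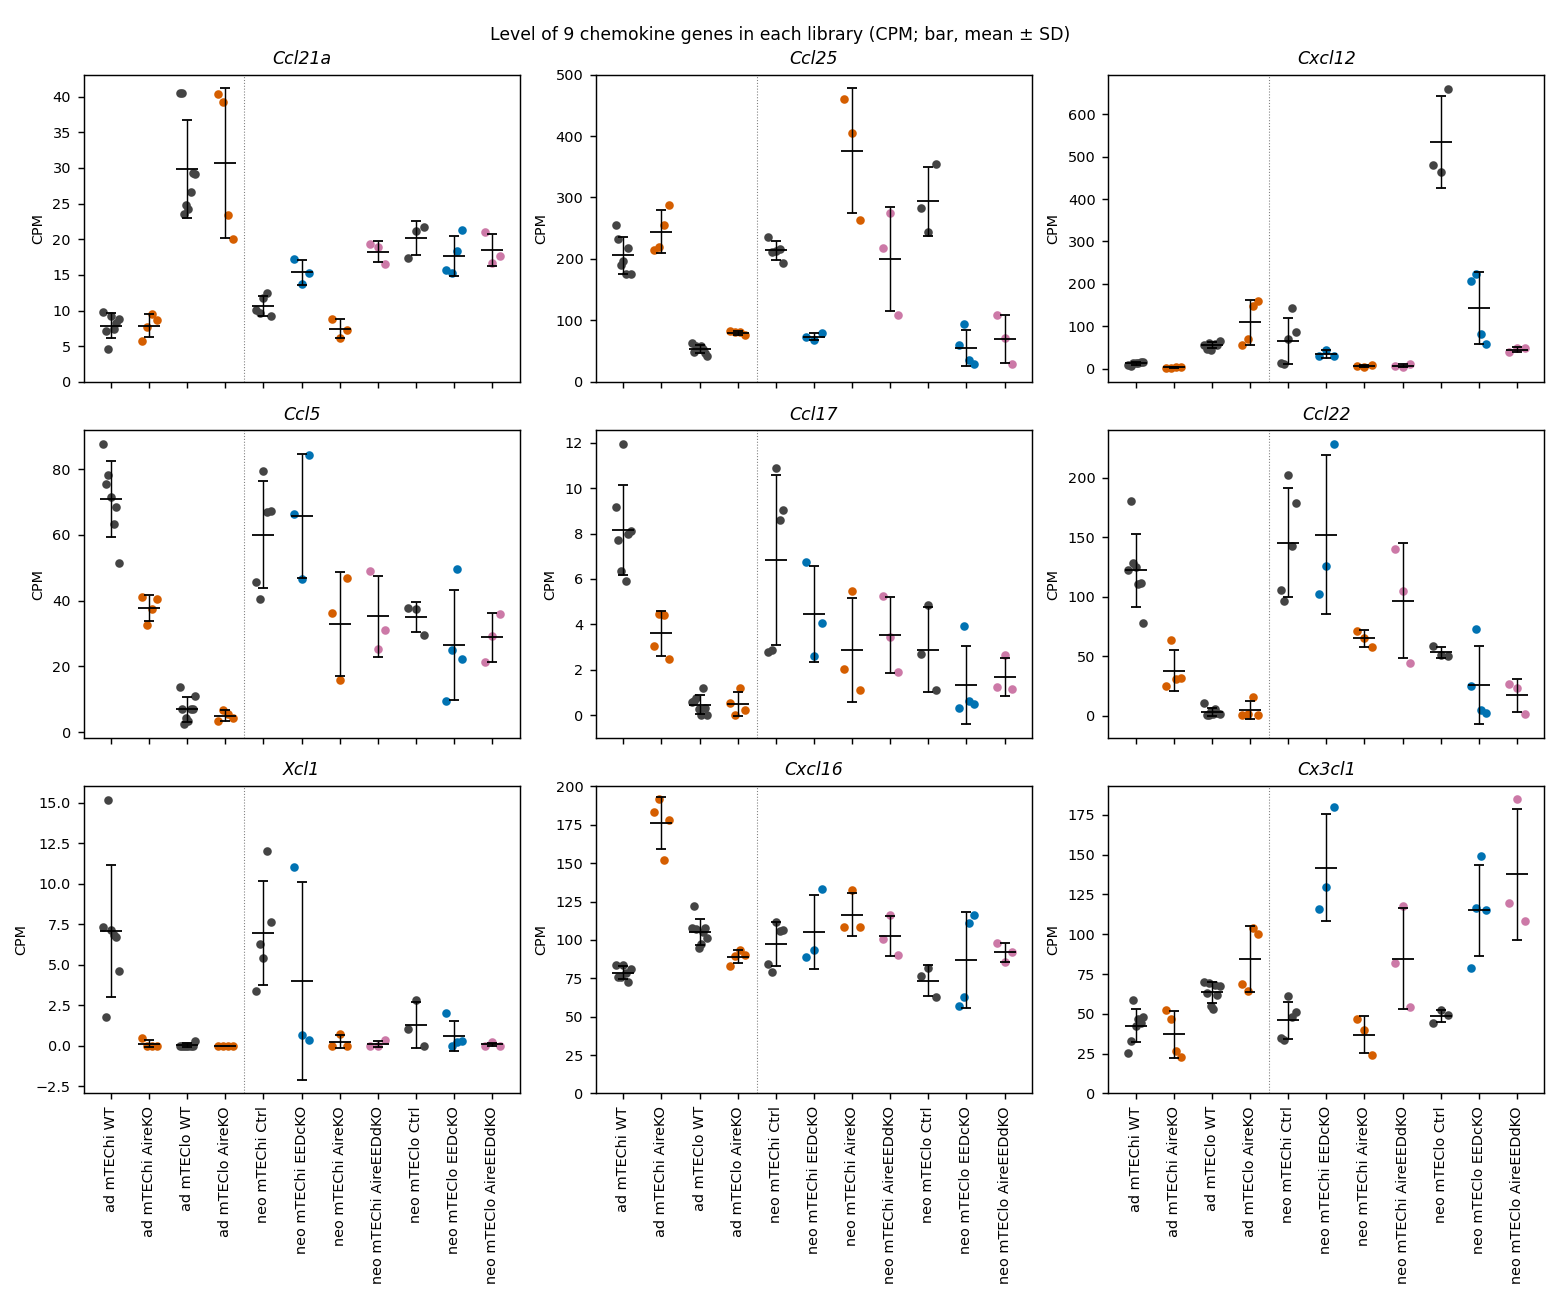
Level of each of the 9 chemokine genes (CPM, linear axis) in each of the 47 libraries, by group, with the mean and SD as bars; adult groups (ad) stand left of the dotted line and neonatal groups (neo) right of it. Ccl5, Ccl17, Ccl22 and Xcl1 were highest in mTEChi, Ccl21a and Cxcl12 in mTEClo, and the SD of sparse genes can reach below 0.

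Levels of different genes were compared per kilobase of exon, counting all annotated exons of a gene together. For Ccl25 these were 7445 bases, with those of its upstream start, so its place depends on this length. Before the division Ccl25 was first in adult WT mTEChi (206 CPM, against 122 for Ccl22 and 70.9 for Ccl5). In adult WT mTEChi the order began with Ccl5 (73.8 CPM per kb ± 12, SD, n = 7) and Ccl22 (52.6 ± 13.2), followed by Ccl25 (27.7) and Cxcl16 (26.1), and the ranges of each of these neighbours overlapped. Cxcl12 was last in this fraction with 1.51 CPM per kb, and its range lay apart from that of the next gene, Ccl21a (9.07). In adult WT mTEClo, Cxcl16 (34.9 ± 2.77, n = 8) and Ccl21a (34.3 ± 7.94) came first with overlapping ranges, and Ccl22 (1.42), Ccl17 (0.917) and Xcl1 (0.0712) came last. Ccl21a may be ranked too low in every group, because reads shared with its copies may have been removed. In neonatal Ctrl mTEClo the first place was taken by Cxcl12 with 65.5 CPM per kb ± 13.3 (n = 3), clear of Ccl25 at 39.5 ± 7.54. Neonatal Ctrl mTEChi resembled adult WT mTEChi at the top, with Ccl5 and Ccl22 each at 62.5 CPM per kb.

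**Figure D2:**
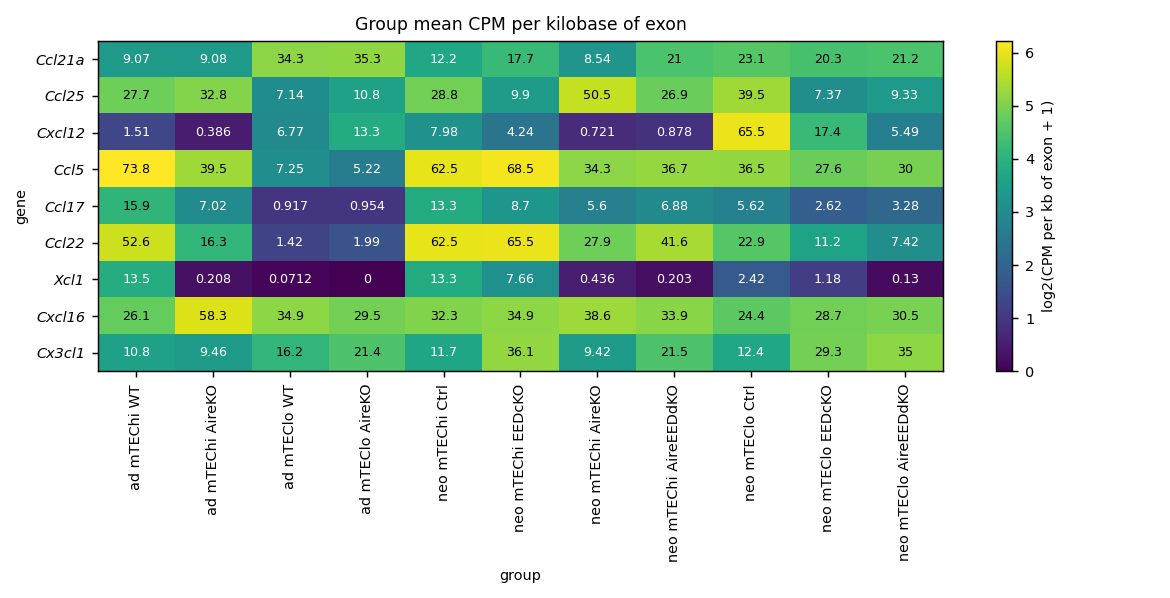
Group mean of each gene in CPM per kilobase of exon (number in each cell), coloured by log2(CPM per kb + 1), for the 11 groups. Cxcl12 ran from 0.386 in adult AireKO mTEChi to 65.5 in neonatal Ctrl mTEClo.

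The adult fractions of WT mice were compared to see which chemokine genes go with maturation of mTECs. Of the 9 genes, 5 rose in mTEChi over mTEClo, 2 fell and 2 passed the adjusted p without reaching 2-fold. A call needed an adjusted p below 0.05 and a change of at least 2-fold in edgeR's quasi-likelihood test, which 36.1% of all 19310 tested genes met (23.7% as higher and 12.4% as lower). Xcl1, counted among the 5, passed the low-count filter through its high groups and so had to differ. It is given below by its reads, and its calls support nothing. Ccl17, also among the 5, passed the filter in adults mainly through WT mTEChi, so its adult calls carry a like reserve. The median log2 difference was 1.96 over the members and 0.0044 over all tested genes.

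Ccl22, a CCR4 ligand, had the widest gap among the well-counted genes. It read 77.6, 122.5 and 180 CPM (lowest, median and highest of 7) in mTEChi and 0.507, 1.93 and 10.8 (of 8) in mTEClo, a log2 difference of 5.35 ± 0.46 (SE; adjusted p = 1.75e-09). Ccl17, the other CCR4 ligand, read 5.93, 7.97 and 11.9 CPM in mTEChi and 0, 0.452 and 1.21 in mTEClo (log2 difference 4.07 ± 0.36, adjusted p = 2.59e-11), and in male libraries alone the log2 difference was 3.35. Neither gene's groups overlapped. Ccl5 read 51.5, 71.6 and 87.6 CPM in mTEChi and 2.53, 6.96 and 13.7 in mTEClo (log2 difference 3.45 ± 0.20, adjusted p = 8.46e-15).

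Xcl1 was sparse, with 139 reads over the 7 WT mTEChi libraries and 1 read over the 8 WT mTEClo libraries. The pooled rates were 7.37 and 0.0404 CPM, a ratio of 182 with a 95% interval of 32.2 to 7252 that covers counting error only. Every WT mTEChi library had at least 3 reads, and 7 of the 8 WT mTEClo libraries had 0. Ccl25 read 176, 197 and 256 CPM in mTEChi and 41.4, 54.3 and 62.8 in mTEClo, a log2 difference of 1.96 ± 0.09 (adjusted p = 1.12e-17) with no overlap.

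The 2 genes that fell with maturation were Ccl21a and Cxcl12. Ccl21a read 4.58, 8.28 and 9.80 CPM in mTEChi and 23.6, 27.9 and 40.5 in mTEClo (log2 difference -1.88 ± 0.18, adjusted p = 1.96e-10). Its raw counts stayed within 64 to 98 in mTEClo although library totals ranged from 1628778 to 3883437. The 2 smallest libraries therefore gave its highest CPM. An exact two-sided permutation test of log2(CPM + 1) gave a difference of -1.79 (p = 0.000311, 0.00404 after Benjamini-Hochberg adjustment over 13 comparisons). It used the sum over the Ccl21 copies, which equals Ccl21a alone because the others held 0 counts. The test therefore cannot address reads shared between copies. Cxcl12 read 7.12, 13.6 and 15.0 CPM in mTEChi and 44.3, 56.5 and 65.3 in mTEClo (log2 difference -2.10 ± 0.20, adjusted p = 4.25e-10).

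The membrane-bound pair moved little. Cxcl16 read 72.3 to 83.9 CPM in mTEChi and 94.6 to 122 in mTEClo (log2 difference -0.41 ± 0.07, adjusted p = 4.47e-06). Cx3cl1 read 25.7 to 58.5 and 52.8 to 70.2 CPM (log2 difference -0.54 ± 0.16, adjusted p = 0.00367). The ranges of Cxcl16 stood apart and those of Cx3cl1 overlapped.

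Lists of other cell types moved with the fraction as well. The summed level of 9 myeloid markers was 568 to 748 CPM in WT mTEChi and 75.7 to 128 in WT mTEClo, led by Fscn1 and Lyz2. The 6 natural killer markers listed summed to 74.1 to 109 and 1.77 to 10.9 CPM, led by Tbx21 and Il2rb, while the defining marker Ncr1 was at 0 in all WT mTEClo libraries. The T cell list (10 genes) summed to 87.8 to 119.5 and 34.8 to 52.6 CPM, and the mesenchyme list (6 genes) to 189 to 352 and 55 to 87.9 CPM. The cortical epithelium list (6 genes) summed to 586 to 654 CPM in mTEChi and 192 to 253 in mTEClo, and 3 of its 6 genes were called higher in mTEChi, the fraction in which Ccl25 was higher. The part of these lists in the results was not tested. The mTEC list, with Krt5, H2-Aa and Aire among its members, summed to 2876 to 3332 CPM in mTEChi and 1648 to 2783 in mTEClo.

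Without Aire, the adult fractions still differed in 7 of the 9 genes (35.2% of all tested genes were called). With the replicate number as a block, shared by all adult groups, the count was also 7. Ccl22 (2.83 ± 0.64), Ccl5 (2.93 ± 0.31), Ccl17 (2.65 ± 0.57) and Ccl25 (1.61 ± 0.13) rose in log2 terms in AireKO mTEChi. Ccl21a fell by 1.88 ± 0.25, Cx3cl1 fell by 1.21 ± 0.22 and Cxcl12 fell by 5.12 ± 0.33 on the log2 scale. In AireKO mTEClo, Cxcl12 and Cx3cl1 split by age and mitochondrial counts, as given below, while every AireKO mTEChi library lacked these counts. The sizes of their differences therefore mix fraction with age and kind of library. Both calls were kept in every alternative that gave a value. A single library set the size for the CCR4 ligands, since without mTEClo AireKO replicate 3 the log2 difference was 5.73 for Ccl22 and 3.56 for Ccl17. Xcl1 had 1 read in the 4 AireKO mTEChi libraries and 0 in the 4 AireKO mTEClo libraries.

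Loss of Aire in adult mTEChi was compared to see which of these genes depend on Aire. Of the 9 genes, 4 fell, 1 rose, and Ccl5 and Ccl25 passed the adjusted p without reaching 2-fold (23.4% of all tested genes were called, 17.7% as lower). The genes that fell were Xcl1, Cxcl12, Ccl22 and Ccl17, and the gene that rose was Cxcl16.

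Xcl1 went from 3, 12, 13, 21, 23, 24 and 43 reads in the WT libraries to 1, 0, 0 and 0 in the AireKO libraries. The ratio of pooled rates was 0.0134 with a 95% counting interval of 0.000337 to 0.0760. Its place among the 4 genes that fell rests on the filter as above. Cxcl12 read 7.12, 13.6 and 15.0 CPM (lowest, median and highest) in WT mTEChi and 2.62, 2.03, 3.40 and 4.56 in AireKO mTEChi, a log2 change of -2.01 ± 0.38 (adjusted p = 6.84e-05) with no overlap. Ccl22 fell from 122 CPM ± 30.7 (n = 7) to 24.9, 63.8, 31.2 and 31.9 (log2 change -1.69 ± 0.43, adjusted p = 0.00243). Ccl17 fell from 8.17 ± 1.99 to 3.05, 4.47, 4.42 and 2.49 CPM (log2 change -1.16 ± 0.33, adjusted p = 0.00368). This call carries the reserve about the filter too, since Ccl17 passed it mainly through WT mTEChi. Ccl5 was lower by less than 2-fold, with 41.0, 32.5, 37.4 and 40.6 CPM in AireKO against 51.5 to 87.6 in WT (log2 change -0.90 ± 0.21, adjusted p = 0.000576), and passed 2-fold with the replicate block (-1.02).

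Cxcl16 rose from 72.3 to 83.9 CPM in WT to 183, 192, 152 and 178 in AireKO, 2.22-fold (log2 change 1.15 ± 0.08, adjusted p = 1.29e-12). With library size alone as the scale its log2 change was 0.99, just under 2-fold. Ccl21a (0.01 ± 0.26, adjusted p = 0.969) and Cx3cl1 (-0.24 ± 0.20, adjusted p = 0.326) had log2 changes near 0. Ccl25 differed by 0.24 ± 0.10 (adjusted p = 0.0492).

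The AireKO mTEChi libraries were also those without mitochondrial counts. With the presence of these counts as a term, which rests on the 2 mTEClo AireKO libraries of each kind, the log2 change of Cxcl12 was -3.30, that of Ccl22 -4.35 (adjusted p = 0.042) and that of Ccl17 -2.26 (adjusted p = 0.21), and Xcl1 was no longer called. In that fit Ccl21a (0.89, adjusted p = 0.040) and Cx3cl1 (-0.86, adjusted p = 0.037) passed the adjusted p without reaching 2-fold. The myeloid list summed to 946 to 1272 CPM in AireKO against 568 to 748 in WT, and the T cell list to 45.9 to 58.5 against 87.8 to 119.5. The cortical list summed to 839 to 924 CPM in AireKO against 586 to 654 in WT. The natural killer list summed to 132 to 148 CPM in AireKO against 74.1 to 109 in WT, led by Tbx21 (mean 107 and 58.2). Its members Klrb1c and Ncr1 were at 0 in all AireKO mTEChi libraries. The part of these in the results was not tested.

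In adult mTEClo, 1 of the 9 genes was called between AireKO and WT (8.24% of all tested genes were called). Cxcl12 read 56.5, 71.0, 148 and 160 CPM in AireKO and 44.3 to 65.3 in WT (log2 change 1.01 ± 0.19, adjusted p = 0.000246). The pair of higher AireKO libraries came from mice of 6 weeks and held no mitochondrial counts, and the pair within or near the WT range came from mice of 5 weeks. With the libraries that held mitochondrial counts alone the log2 change was 0.21 (adjusted p = 0.39), and with age as a term it was 0.23 (adjusted p = 0.54). Leaving out AireKO replicate 3 or 4 gave 0.84 and 0.76, and leaving out WT replicate 2, 4 or 5 gave 0.96 to 1.00. Cx3cl1 split in the same way, with 68.8 and 64.1 CPM at 5 weeks and 104 and 100.3 at 6 weeks (log2 change 0.44 ± 0.18, adjusted p = 0.071). Ccl25 (0.59 ± 0.11, adjusted p = 0.000268) and Cxcl16 (-0.23 ± 0.08, adjusted p = 0.0347) passed the adjusted p without reaching 2-fold. The cortical list summed to 356 to 471 CPM in AireKO mTEClo against 192 to 253 in WT, with 4 of its 6 genes called higher, and its part in the values of Cxcl12 and Ccl25 was not tested.

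Whether the difference between AireKO and WT was itself different in the fractions was tested as an interaction, which called 2 of the 9 genes (13.6% of all). Every AireKO mTEChi library lacked mitochondrial counts, but only some AireKO mTEClo libraries did. The part of this in the interaction was not tested. The mTEClo change of Cxcl12 depended on age and on these counts, as given above. For Cxcl12 the log2 change in mTEChi minus that in mTEClo was -3.02 ± 0.42 (adjusted p = 5.96e-06), and for Cxcl16 it was 1.39 ± 0.11 (adjusted p = 4.94e-10). For Ccl22 it was -2.51 ± 0.92, on the edge of the threshold (adjusted p = 0.0515). It passed when any 1 of mTEClo WT replicates 1 and 6, mTEClo AireKO replicates 1, 2 and 4, mTEChi WT replicate 7 or mTEChi AireKO replicate 2 was left out (-2.61 to -3.09, adjusted p 0.014 to 0.0465). That list lacks mTEClo AireKO replicate 3, which had an outlying Ccl22 value. Without that library the fraction difference of Ccl22 in AireKO was 5.73, against 5.35 in WT with all libraries, so the interaction depended on it. For Xcl1, with 1 read over the 12 mTEClo libraries, edgeR gave -4.74 with an SE of 49.0 (adjusted p = 0.967), while DESeq2 called it (-5.80, adjusted p = 0.00541), and fitted values at so few reads depend on the tool.

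In neonatal Ctrl mice, 2 of the 9 genes were called between the fractions, a share near the 20.5% called over all 20196 tested genes. Ccl21a passed the adjusted p without reaching 2-fold (log2 difference -0.90 ± 0.18, adjusted p = 0.000525). It read 9.27 to 12.5 CPM in mTEChi and 17.4 to 21.8 in mTEClo. An exact permutation test gave p = 0.036 for it (adjusted 0.093). Cxcl12 fell in mTEChi, which read 14.5, 10.9, 71.2, 143 and 86.2 CPM, against 480, 464 and 661 in mTEClo (log2 difference -2.96 ± 0.50, adjusted p = 0.000194). The 2 lowest mTEChi libraries came from mice of 6 days and the other 3 from mice of 1 to 3 days. Xcl1 rose in mTEChi, with 6, 11, 20, 46 and 33 reads in mTEChi and 3, 8 and 0 in mTEClo (log2 difference 2.33 ± 0.87, adjusted p = 0.0402). This call was lost in several alternatives, among them the replicate block (adjusted p = 0.076), and without any of mTEClo replicates 1 and 3 or mTEChi replicates 2, 4 and 5 (adjusted p 0.051 to 0.13). Without mTEClo replicate 2 the log2 difference was 3.48. Ccl22 read 106, 96.6, 202, 143 and 179 CPM in mTEChi and 58.6, 50.8 and 50.3 in mTEClo without overlap, and its log2 difference of 1.46 ± 0.70 did not pass (adjusted p = 0.108). With the Ctrl groups alone it did (1.47, adjusted p = 0.00018). Among mice of up to 3 days Ccl22 (1.72), Ccl17 (1.63) and Ccl5 (1.02) all passed as higher in mTEChi (adjusted p 0.0019 to 0.023). Ccl25 read 193 to 236 CPM in mTEChi and 282, 244 and 355 in mTEClo (log2 difference -0.45 ± 0.33, adjusted p = 0.299). The cortical list summed to 400 to 745 CPM in Ctrl mTEChi and 1524 to 2374 in Ctrl mTEClo, with 4 of its 6 genes called lower in mTEChi as Cxcl12 was, and its part in that result was not tested.

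Set side by side, the control values of the 2 ages differed most in mTEClo. Cxcl12 in mTEClo read 55.3 CPM ± 6.86 (n = 8) in adults and 535 ± 109 (n = 3) in neonates, Ccl25 read 53.1 ± 6.97 and 294 ± 56.1, and Ccl22 read 3.30 ± 3.49 and 53.2 ± 4.69. In mTEChi the values lay closer for Ccl25 (206 ± 30.0, n = 7, and 214 ± 15.3, n = 5), Ccl5 (70.9 ± 11.5 and 60.0 ± 16.3) and Xcl1 (7.08 ± 4.08 and 6.94 ± 3.23), while Cxcl12 read 12.4 ± 3.01 and 65.2 ± 55. Age and count table cannot be told apart here, so no test was made. The cortical epithelium list (6 genes) summed to 192 to 253 CPM in adult and 1524 to 2374 in neonatal control mTEClo, led in neonates by Prss16 and Ly75, and its part in the values of Cxcl12 and Ccl25 was not tested.

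Loss of Eed was compared with Ctrl in each neonatal fraction, to see which chemokine genes respond to the loss of PRC2. In mTEChi, 2 of the 9 genes were called (13.7% of all), Ccl25 as lower and Cx3cl1 as higher. In mTEClo, 3 of the 9 were called (15.6% of all), Ccl25 and Cxcl12 as lower and Cx3cl1 as higher.

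Ccl25 read 236, 212, 213, 217 and 193 CPM in Ctrl mTEChi and 73.7, 67.7 and 79.8 in EEDcKO mTEChi, a log2 change of -1.54 ± 0.37 (adjusted p = 0.00295). In mTEClo it read 282, 244 and 355 CPM in Ctrl and 60.4, 93.4, 35.8 and 29.8 in EEDcKO (log2 change -2.44 ± 0.37, adjusted p = 4.71e-05). The groups stood apart in both fractions. Among mice of up to 3 days alone, the log2 change was -1.51 ± 0.18 in mTEChi and -1.98 ± 0.19 in mTEClo, and among mice of at least 4 days it was -1.65 in mTEChi (adjusted p = 0.27, with 1 EEDcKO library).

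Cx3cl1 read 35.1, 33.7, 61.4, 48.3 and 51.2 CPM in Ctrl mTEChi and 116, 130 and 180 in EEDcKO mTEChi (log2 change 1.60 ± 0.25, adjusted p = 6.75e-05). In mTEClo it read 44.6, 52.5 and 49.1 CPM in Ctrl and 79.1, 116, 149 and 115 in EEDcKO (log2 change 1.24 ± 0.28, adjusted p = 0.00185). Every EEDcKO library lay above every Ctrl library of its fraction. Among mice of up to 3 days the mTEClo change was 0.95 ± 0.19, under 2-fold (adjusted p = 0.0031). In mTEChi of at least 4 days it was 1.71 (adjusted p = 0.073). Its neighbours Ccl22 (0.06 ± 0.64, adjusted p = 0.956) and Ccl17 (-0.80 ± 0.58, adjusted p = 0.303) were not called in mTEChi. Among mice of up to 3 days Ccl17 was called as lower there (-1.55, adjusted p = 0.044) and Ccl22 was not (-0.002, adjusted p = 0.999).

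Cxcl12 in mTEClo fell from 480, 464 and 661 CPM in Ctrl to 207, 223, 82.5 and 57.4 in EEDcKO (log2 change -1.92 ± 0.53, adjusted p = 0.00892). The EEDcKO libraries at 207 and 223 came from mice of 1 to 3 days and the lower pair from mice of 4 and 6 days, an age with no Ctrl mTEClo library. Among mice of up to 3 days the log2 change was -1.36 ± 0.26 (adjusted p = 0.0027). In mTEChi it was -0.95 ± 0.57 (adjusted p = 0.212), and within the younger mice -1.42 ± 0.29 (adjusted p = 0.0037).

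Ccl21a in mTEChi passed the adjusted p at a log2 change of 0.50 ± 0.18 (adjusted p = 0.0363), with 17.2, 13.7 and 15.3 CPM in EEDcKO and 9.27 to 12.5 in Ctrl. Xcl1 in mTEChi was carried by 1 library, with 18, 3 and 1 reads in the EEDcKO libraries, and without EEDcKO replicate 1 its log2 change went from -1.22 (adjusted p = 0.248) to -3.71 (adjusted p = 0.0025). Without mTEClo EEDcKO replicate 2, the mTEClo changes of Ccl22 and Ccl17 went from -1.11 and -1.28 (adjusted p = 0.281 and 0.196) to -2.45 and -2.49 (adjusted p = 0.012 and 0.019). No gene passed the test of a different EED effect in the 2 fractions (317 of 20196 genes did, 1.57%), and the smallest adjusted p was 0.192, for Ccl21a, the 1 gene with an unadjusted p below 0.05. DESeq2 called 0 of the 9 there.

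Other cell type lists moved with Eed loss too. In mTEClo the cortical epithelium list summed to 1524 to 2374 CPM in Ctrl and 222 to 786 in EEDcKO, with Psmb11 at 263 ± 94.8 (n = 3) and 35.9 ± 37.7 (n = 4). The mesenchyme list (6 genes) summed to 120 to 128 CPM in Ctrl and 492 to 678 in EEDcKO mTEClo, led by Dcn and Col1a2, and to 239 to 313 and 488 to 772 in mTEChi. Their part in the results for Ccl25, Cxcl12 and Cx3cl1 was not tested.

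**Figure D3:**
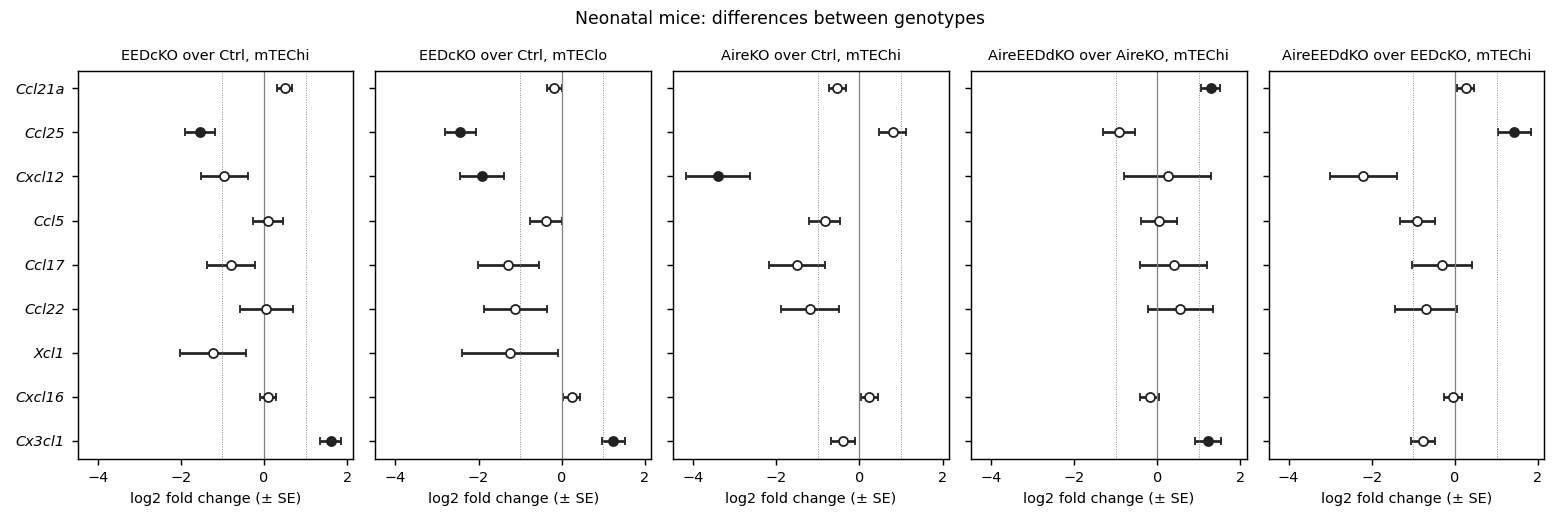
Log2 fold change ± SE of each gene in 5 neonatal comparisons; filled points were called, dotted lines mark 2-fold, and Xcl1 is left out where a group held 3 reads or fewer. Ccl25 was lower and Cx3cl1 higher in EEDcKO than in Ctrl in both fractions.

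**Figure D4:**
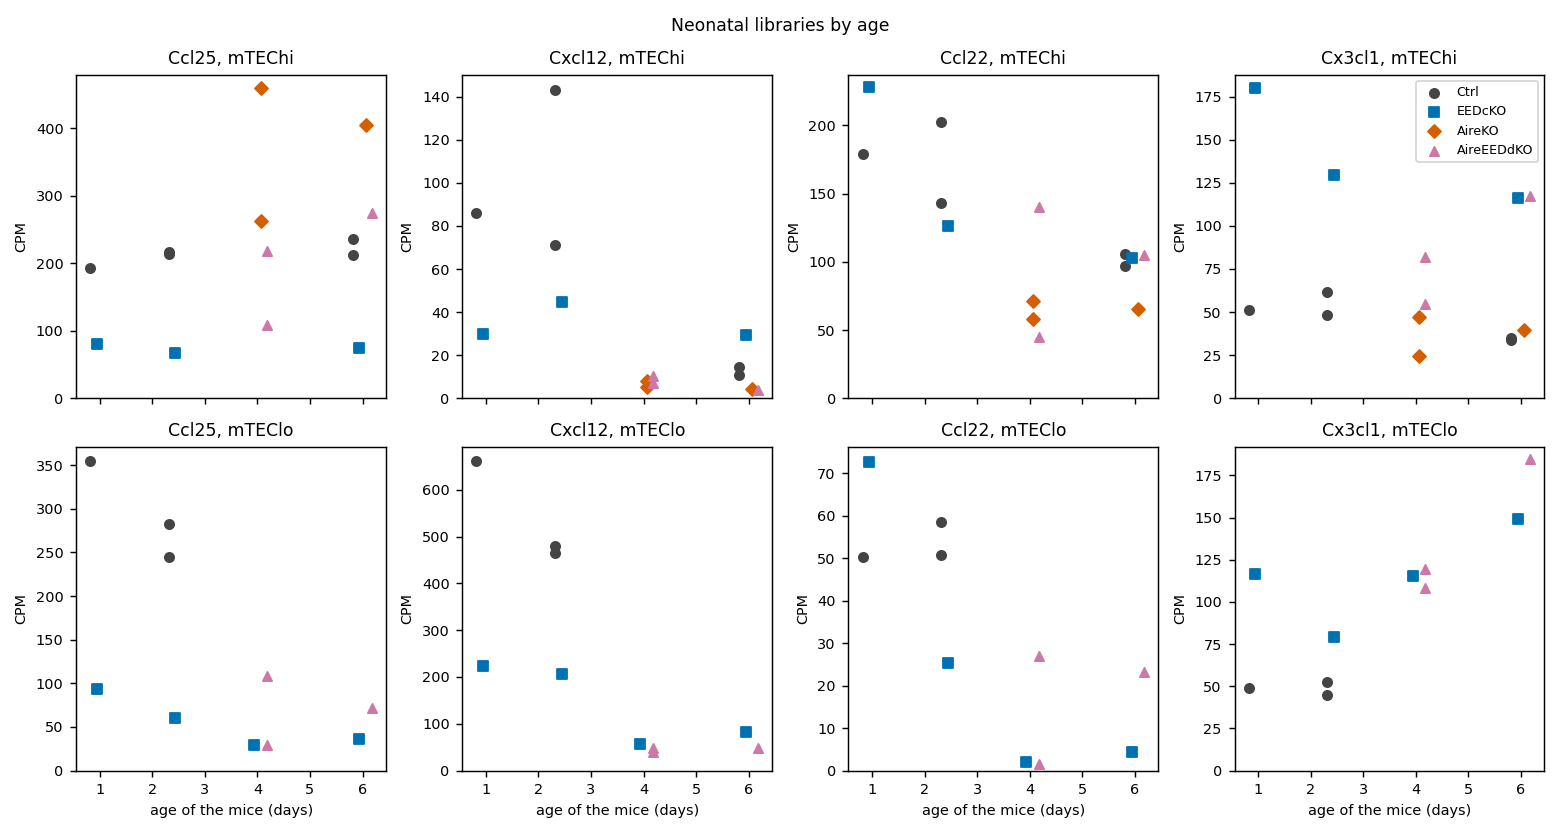
Level (CPM) of Ccl25, Cxcl12, Ccl22 and Cx3cl1 in each neonatal library against the age of the mice in days (2 to 3 days drawn midway), mTEChi in the upper row and mTEClo in the lower, coloured by genotype. Cxcl12 in Ctrl mTEChi read 10.9 and 14.5 at 6 days and 71.2 to 143 at 1 to 3 days.

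Neonatal AireKO mTEChi differed from Ctrl in 2 of the 9 genes (16.3% of all). Xcl1 went from 6, 11, 20, 46 and 33 reads to 0, 1 and 0, a ratio of pooled rates of 0.0204 with a 95% counting interval of 0.000512 to 0.116. It is counted among the 2 with the same reserve about the filter, and was not called without AireKO replicate 3. Cxcl12 read 5.45, 4.11 and 8.13 CPM in AireKO, below all 5 Ctrl libraries (log2 change -3.41 ± 0.77, adjusted p = 0.00286). The AireKO mice were 4 to 6 days old, and against the 2 Ctrl libraries of that age (14.5 and 10.9 CPM) the log2 change was -1.09 (adjusted p = 0.083). With age in days as a term it was -2.84 ± 0.62 (adjusted p = 0.0024). Ccl25 read 460, 405 and 263 CPM, above all Ctrl libraries, with a log2 change of 0.80 ± 0.33 (adjusted p = 0.075). Cxcl16, which had risen in adult AireKO mTEChi, read 108, 133 and 108 CPM against 79.5 to 112 in Ctrl (log2 change 0.24 ± 0.20, adjusted p = 0.396). Ccl17 was not called (-1.51, adjusted p = 0.0939) and passed without AireKO replicate 2 (-2.35, adjusted p = 0.0482). Ccl22 was not called either (-1.19 ± 0.70, adjusted p = 0.218). With only these groups fitted, Ccl22 (-1.28, adjusted p = 0.00051) and Ccl17 (-1.69, adjusted p = 0.024) were called and Cxcl12 was not (-3.48, adjusted p = 0.056). The adult and neonatal Aire effects were not tested against each other.

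The double knockout was compared with each single knockout in mTEChi. Against AireKO, 2 of the 9 genes rose (9.44% of all were called, 6.68% as higher). Ccl21a rose from 8.85, 6.16 and 7.29 CPM to 19.3, 18.9 and 16.6, 2.44-fold (log2 change 1.29 ± 0.22, adjusted p = 3.0e-04). An exact permutation test of 3 against 3 libraries, which cannot go below 0.10, gave p = 0.10 (adjusted 0.217). Cx3cl1 rose from 47, 39.7 and 24.4 to 81.9, 118 and 54.5 CPM (log2 change 1.23 ± 0.31, adjusted p = 0.00926). It was not called without AireEEDdKO replicate 2 (0.91) or AireKO replicate 3 (0.94). Libraries with a shared number varied in parallel in this comparison, and fitting the number as a block left the count at 2. That block was shared by all neonatal groups, so the pairs of these groups were not fitted by themselves.

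Against EEDcKO, 1 of the 9 genes was called in mTEChi (13.2% of all). Ccl25 rose from 73.7, 67.7 and 79.8 CPM to 218, 275 and 108 (log2 change 1.43 ± 0.40, adjusted p = 0.0132), so that the double knockout lay around the Ctrl level of 214 ± 15.3 with a much wider spread. The call was lost without EEDcKO replicate 2 (adjusted p = 0.07) or AireEEDdKO replicate 2 (0.089), and with no filter on low counts (0.063). The AireEEDdKO mice were 4 or 6 days old and the EEDcKO mice 1 to 6 days. Among mice of at least 4 days the log2 change of Ccl25 was 1.35, with 1 EEDcKO library. Cxcl12 read 7.02, 4.02 and 10.5 CPM against 29.5, 44.7 and 29.9 (log2 change -2.20 ± 0.81, adjusted p = 0.0556) and passed among mice of at least 4 days (-2.02, adjusted p = 0.0096, with 1 EEDcKO library), with DESeq2 and with the groups compared alone. Xcl1 had 1 read in the AireEEDdKO mTEChi libraries and 22 in the EEDcKO ones (ratio 0.0651, 95% counting interval 0.00158 to 0.403). Its adjusted p of 0.0716 fell to 0.037 without EEDcKO replicate 2 and 0.038 without replicate 3, and Cx3cl1 (-0.77, adjusted p = 0.0568) passed without AireEEDdKO replicate 2 (-1.08, adjusted p = 0.0242).

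In mTEClo, 0 of the 9 genes were called by edgeR between AireEEDdKO and EEDcKO, and 5.15% of all tested genes were. Cxcl12 read 38.9, 47.9 and 48.0 CPM in AireEEDdKO (log2 change -1.65 ± 0.57, adjusted p = 0.0806) and passed without EEDcKO replicate 3 (-1.84) or 4 (-1.92). Those replicates came from mice of 6 and 4 days, the ages of the AireEEDdKO mice. The other EEDcKO libraries came from mice of 1 to 3 days. Age therefore differed between these genotypes, and more so when either replicate was left out. Cx3cl1 read 119, 185 and 108 CPM. At an unadjusted p below 0.05, 1 of the 9 genes (Cxcl12) differed, and DESeq2 called 0. No gene of the 9 passed the test of an interaction between Aire and Eed loss in mTEChi (1.25% of all did). At an unadjusted p below 0.05 it was 1, Ccl21a, and DESeq2 called 0.

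Between the fractions of EEDcKO mice, 3 of the 9 genes were called (21.7% of all). Ccl22 (log2 difference 2.64 ± 0.72, adjusted p = 0.00756) and Ccl5 (1.27 ± 0.38, adjusted p = 0.0112) rose in mTEChi and Cxcl12 fell (-2.0 ± 0.59, adjusted p = 0.0121). Among mice of at least 4 days, with 1 mTEChi library, the log2 difference was 5.03 for Ccl22, 0.96 for Ccl5 and -1.16 for Cxcl12. Among mice of up to 3 days it was 1.91 for Ccl22 and 1.99 for Ccl5. With no filter on low counts Cxcl12 was not called (-1.91, adjusted p = 0.056). Ccl22 in EEDcKO mTEClo was spread over 25.4, 72.7, 4.44 and 2.00 CPM, and its log2 difference was 3.97 without mTEClo replicate 2. Ccl17 (1.73, adjusted p = 0.0563) passed without mTEClo replicate 2 (2.93) or mTEChi replicate 2 (2.16), and Xcl1 (2.35, adjusted p = 0.0806) without mTEClo replicate 1 or mTEChi replicates 2 or 3 (adjusted p 0.023 to 0.032). By age, the Xcl1 difference was -0.91 (adjusted p = 0.61) among mice of up to 3 days and 5.43 (adjusted p = 0.0044, with 1 mTEChi library) among mice of at least 4 days, a difference between the ages that was not itself tested, and Ccl17 was 0.69 (adjusted p = 0.49) and 3.55 (adjusted p = 0.022). With the EEDcKO groups alone Ccl5 and Ccl22 were not called (adjusted p = 0.053 and 0.055). Without mTEChi EEDcKO replicate 3, Cxcl12 (adjusted p = 0.061) and Ccl5 (adjusted p = 0.08) were not called. In AireEEDdKO mice, 3 of the 9 were called (20.8% of all), Ccl25 (1.53 ± 0.39, adjusted p = 0.00432) and Ccl22 (2.48 ± 0.82, adjusted p = 0.0224) as higher and Cxcl12 (-2.55 ± 0.79, adjusted p = 0.0146) as lower in mTEChi. The Ccl22 call was lost without mTEChi AireEEDdKO replicate 1 or 2 or mTEClo replicate 3, and the Cxcl12 call without mTEChi replicate 2 (adjusted p 0.062 to 0.094).

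The rest of the chemokine system was followed with lists of 29 other ligands, 23 receptors and 4 genes of shedding or cleavage. Between adult WT fractions, 12 of 24 tested ligands rose in mTEChi and 2 fell, against 23.7% and 12.4% of all tested genes. Cxcl2, a neutrophil attractant (4.35), Cxcl13, the CXCR5 ligand (4.35), Ccl1, the CCR8 ligand (4.98), and Cxcl9, a CXCR3 ligand (1.63), had the smallest p among those higher, and the median log2 difference was 1.03. Of the 19 tested receptors 13 rose and 1 fell, against the same shares. Ccr7 (log2 difference 4.51), Ccr4 (4.97) and Ccr6 (5.08) rose with Cxcr5 (3.46). Ackr4, which scavenges CCL21 and CCL25, fell (-2.04).

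In adult mTEChi without Aire, 13 of 24 ligands fell and 1 rose (17.7% and 5.63% of all tested genes), with a median log2 change of -1.39. Ccl1 (196 reads in the 7 WT libraries and 1 in the 4 AireKO libraries), Ccl8 (-3.14), Cxcl17 (-3.73) and Cxcl13 (-2.29) led by adjusted p. Ligands as sparse in AireKO as Ccl1 passed the low-count filter through the groups in which they were high. The ligand counts of both ages, and those between adult WT fractions, therefore carry the reserve given for Xcl1. Of the receptors 4 rose and 6 fell, with Ccr7 (1.78), Ackr2 (1.78) and Cxcr5 (1.14) higher and Xcr1, the receptor of XCL1, lower (-2.59). In neonatal AireKO mTEChi 11 of 25 ligands fell and 0 rose by edgeR (12.7% and 3.54% of all), where 1 was higher at an unadjusted p below 0.05. Cxcl13 fell (-3.82), and reads went from 190 to 2 for Ccl1, from 97 to 0 for Ccl8 and from 71 to 3 for Cxcl17 over the libraries of each group. In neonatal EEDcKO mTEChi 1 of 25 ligands rose and 3 fell, a share near that of all tested genes (13.7%, 8.43% as higher and 5.3% as lower), among them Cxcl2 (-1.93) and Cxcl1 (-1.87), and Ackr3, a scavenger of CXCL12, rose (1.85). In EEDcKO mTEClo, Ackr3 rose (2.00) and Ccr4 fell (-2.33), and 6 of 19 receptors fell in all (6.12% of all tested genes). Of the shedding genes, Dpp4, a peptidase that trims chemokines, rose in mTEChi of adult WT (2.09) and neonatal Ctrl mice (1.88), and Adam10 and Adam17 were called in no comparison.

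The genes whose pattern was most alike were ranked by the smaller of the Pearson correlations of log2(CPM + 1) over the 23 adult and the 24 neonatal libraries. The libraries share sorts, genotypes and depth, so that the values are a description. Ccl25 was closest to Clic5 (0.963, smaller value) and Slc22a7 (0.932), and Cxcl12 to Nin (0.939) and Pgm5 (0.931). Xcl1 followed Sbpl (0.887), Ccl22 followed Hrk (0.881) and Coch (0.879), and Cx3cl1 followed Sptb (0.873). Lower values were found for Ccl5 (Slc26a10, 0.855), Ccl17 (Adcyap1r1, 0.809) and Cxcl16 (Hivep1, 0.795), and Zmynd15, second for Cxcl16 (0.765), shares exon sequence with it. Among the members, Ccl17 and Ccl22 had r = 0.94 over the adult and 0.74 over the neonatal libraries, and their neighbour Cx3cl1 had r = -0.63 with each over the adult libraries and -0.14 and -0.31 over the neonatal ones.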

How the data were processed

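Bulk RNA-seq libraries of sorted mTECs were used as 2 tables, 23 adult and 24 neonatal libraries, grouped by GEO's labels. The authors deposited raw read counts per Ensembl gene after trimming with fastp 0.20.0, alignment to mm10 with STAR 2.7.3a, removal of reads with mapping quality below 5 (SAMtools 1.9) and of duplicates (Picard 2.21.1), and unstranded counting with HTSeq 0.11.2. The tables hold 53402 and 55471 genes and so rest on different annotations. Their normalized tables were not used, and 0 per-sample columns were left unmapped. The Ensembl release is not given in the sources used here.

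Genes were named with GENCODE vM21, in which 100% and 99.6% of the identifiers were found. Each table was fitted over all its groups with edgeR 4.0.16 (R 4.3.3; TMM scaling, low-count filter, robust quasi-likelihood test), which tested 19310 and 20196 genes, and p-values were adjusted by Benjamini-Hochberg over all of them. Calls required an adjusted p under 0.05 together with a change of at least 2-fold, as in the methods of the study. Fold changes used a prior count of 0.125 and correlations log2(CPM + 1). On simulated data the fit was tested before use. Sums over Ccl21 copies were compared by exact permutation (scipy 1.17.1). Counting intervals are exact at 95%. Alternatives were other scalings, no filter, DESeq2 1.42.0, the groups compared alone, age, sex, mitochondrial counts, a replicate block and leaving out each library. The replicate block was a term per replicate number shared by all groups fitted together, and not a paired fit of the groups compared. The age limits of 3 and 4 days were chosen after seeing the data. The labels do not say for every library that it came from separate animals, so p-values measure the spread between these samples, which may in part be technical.

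Same-numbered libraries correlated above 0.1 in their deviations from group means in every pair for the adult AireKO fractions (0.14 to 0.22), the AireEEDdKO fractions (0.29 to 0.42) and AireEEDdKO against AireKO mTEChi (0.11 to 0.21), and elsewhere did not. The members and lists were chosen with earlier results of these data known. Genes named beside the 9 members were Aire and Eed, for each member up to 2 protein-coding genes of at least 5 CPM on average with the most alike pattern, and of each list up to 4 called genes per comparison by smallest adjusted p. Some of these genes are not reported here.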

Additional observations from a re-analysis of the deposited data

Results flagged for a closer look

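In groups of 4 to 10 libraries, 53 sets of values were examined and 6 had a value far from the rest by Dixon's criterion. The criterion's rate of about 1 in 20 sets does not hold for sparse counts. A set with reads in a single library is always flagged, as Xcl1 was in adult mTEChi AireKO and adult mTEClo WT. The 6 are therefore not an excess over that rate. Ccl22 read 16.0 CPM in adult mTEClo AireKO replicate 3 against 0.241, 1.08 and 1.25 in the other libraries of the group. Ccl17 read 3.92 CPM in neonatal mTEClo EEDcKO replicate 2, where Ccl22 was also highest (72.7 CPM). Xcl1 read 15.2 CPM in adult mTEChi WT replicate 3 (43 reads), 0.436 in adult mTEChi AireKO replicate 1 and 0.298 in adult mTEClo WT replicate 8 (1 read each), and 2.00 in neonatal mTEClo EEDcKO replicate 1 (6 reads).

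The effect of Aire loss differed between adult mTEChi and mTEClo for Cxcl12, by -3.02 on the log2 scale, and for Cxcl16, by 1.39, each by the interaction test. The share of libraries without mitochondrial counts also differed between the AireKO fractions, and its part was not tested.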

How the results depend on the processing

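Of 40 calls made for the 9 genes over the 16 comparisons, 23 were kept in every alternative that gave a value and 17 were lost in at least 1, and no called change turned its direction. The adult fraction calls and those of Ccl25 and Cxcl12 in EEDcKO mTEClo were among the 23. Both age limits were chosen after seeing the data. The cause of the changes below was not tested. Between adult mTEClo AireKO and WT the count of called chemokine genes went from 1 to 0 with age in weeks as a term or with libraries holding mitochondrial counts only, and to 3 with no minimum change. Between adult mTEChi AireKO and WT it went from 5 to 3 with mitochondrial counts as a term. Between neonatal Ctrl fractions it went from 2 to 1 with no filter, with DESeq2 or with the replicate block, to 4 with only the groups compared, and to 5 in mice up to 3 days. For neonatal EEDcKO fractions it went from 3 to 1 with only the groups compared. For EEDcKO against Ctrl mTEChi it went from 2 to 5 in mice up to 3 days and to 0 in mice of at least 4 days, where 1 EEDcKO library stands alone and is assumed to vary like the other groups, and for AireKO against Ctrl mTEChi from 2 to 1 in mice of at least 4 days. For AireEEDdKO against AireKO mTEChi it went from 2 to 1 with no filter. For AireEEDdKO against EEDcKO mTEChi it went from 1 to 2 with RLE size factors, library size alone, only the groups compared or mice of at least 4 days, to 3 with DESeq2 and to 0 with no filter.

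Leaving out each library in turn gave 0 to 1 called chemokine genes for adult mTEClo AireKO against WT, 1 to 2 for neonatal Ctrl fractions, 2 to 5 for EEDcKO fractions, 3 to 5 for EEDcKO against Ctrl mTEClo, 0 to 1 for AireEEDdKO against EEDcKO mTEClo, 1 to 3 for AireKO against Ctrl mTEChi, 1 to 2 for AireEEDdKO against EEDcKO mTEChi and 1 to 2 for AireEEDdKO against AireKO mTEChi. With the replicate block, Ccl5 passed 2-fold between adult AireKO and WT mTEChi (5 to 6 calls) and Xcl1 was lost between neonatal Ctrl fractions (2 to 1), and no other call of the 9 genes changed. In single genes, 130 refits of changes called in neither fit changed sign. With only the groups compared, Xcl1 between adult WT fractions and Ccl17 between AireKO fractions were filtered out and gave no value. None of the 198 group levels recomputed with RLE or library size alone moved by more than 1 SD.

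Counts over all genes moved by over 1.5 times with no filter between adult WT fractions (6963 to 13751) and between AireKO and WT mTEChi (4512 to 7938), with age between adult mTEClo AireKO and WT (1592 to 1038), with the replicate block for AireEEDdKO against EEDcKO mTEClo (1040 to 689), and with only the groups compared for AireEEDdKO against EEDcKO mTEClo (1040 to 28) and mTEChi (2672 to 1753) and for the Aire by EED interaction (253 to 399). DESeq2 gave 388 for that interaction. In mice of at least 4 days the counts were 2212 for EEDcKO fractions (4385), 712 for EEDcKO against Ctrl mTEChi (2773), 1773 for AireKO against Ctrl mTEChi (3286), 969 and 144 for AireEEDdKO against EEDcKO mTEChi and mTEClo (2672 and 1040), and 5 for the interaction (253). In mice up to 3 days the test of different EED effects gave 776 (317). With no minimum change the counts ran from 324 to 13594, against 253 to 6963. Depth limits what can be said of Xcl1 and Ccl17, which had at most 46 and 40 reads in any library.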
